A study of Rattus norvegicus with 8 samples.

Results

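Endothelial genes, those that blood vessel lining cells are known for, were followed in rat dorsal root ganglia after nerve injury. The members were set by gene symbol as Pecam1, Cdh5, Kdr, Flt1, Tek, Tie1, Vwf, Cldn5, Esam and Slc2a1. Of these 10 genes, 9 were present on the array under their symbol, with 13 of the 22379 probes tested. They were 9 of 10746 genes with a tested probe. No probe carried the symbol Cldn5, so this tight junction gene is not analysed here.

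The ligation group held 4 samples of dorsal root ganglion from Sprague Dawley rats at 7 days after tying of the spinal nerve, the Chung model of neuropathic pain. The control group held 4 samples of the same tissue, strain and day. The descriptions call their animals sham-operated and the titles call the samples contralateral, so operation and body side cannot be told apart. Contralateral samples could come from the ligated animals, so the groups may not be independent. Every sample was a pool of 2 animals, whose age and sex are not given in the labels. Each sample, labelled with Cy5, shared a two-colour array with a Cy3-labelled pool of control ganglion RNA.

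Endothelial cells line every vessel of the ganglion, and in some vessels of the body they form a tight barrier between blood and tissue. VE-cadherin, PECAM-1 and ESAM hold neighbouring cells together, the TIE and VEGF receptors carry signals for vessel growth and rest, and the glucose transporter GLUT1 feeds the tissue behind such a barrier. Several of these genes are also active elsewhere: Pecam1 in platelets and leukocytes, Vwf in megakaryocytes, and Slc2a1 in the perineurium. In ganglion RNA, fewer cells of a type and less RNA per cell cannot be told apart.

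Values below are log2 ratios of sample over reference intensity, and a change is the mean of the 4 ligation samples minus the mean of the 4 control samples. Tests were made with limma over all probes, with Benjamini-Hochberg adjustment and a threshold of 0.05. The array median of the sample intensity was 0.21 to 0.22 in ligation and 0.17 to 0.2 in control, and the median log2 ratio was 0 on all 8 arrays. Printed intensities had 2 decimals, so the values of dim probes moved in coarse steps, and the range of changes that the printed digits allow is given where it is wide. The defining markers of the tissue were measured: 7 sensory neuron genes with a value on all 8 arrays, among them Avil, Trpv1 and Scn10a, summed to an intensity of 10.3 to 11.5 in ligation and 28.6 to 31.0 in control. With Snap25, which had no value on control arrays 2 and 3, the list held 8 genes. Of these, 0 were higher in ligation and 7 were lower (87.5%, against 35.9% of all genes).

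Of the 9 measured endothelial genes, 5 were higher in ligation, 0 were lower and 4 did not pass, each gene taken by its brightest probe. Kdr was lower at an unadjusted p under 0.05 in limma. Over all genes measured the same way, 66.1% passed, 30.2% as higher and 35.9% as lower. The median change of the 9 genes was 0.26, against -0.05 over all genes. The 5 were Cdh5, Tie1, Pecam1, Tek and Slc2a1, with changes between 0.22 and 0.77, and Esam, Kdr, Flt1 and Vwf did not pass. For the same 5 genes the 4 ligation values lay apart from the 4 control values, which held for 62.3% of all genes (28.7% with ligation above). By probe, 5 of 13 were higher, 1 was lower and 7 did not pass, while of all probes 58.6% passed, 26.4% as higher and 32.2% as lower. Groups of values were apart for 53.3% of all probes, 24.3% with ligation above. Quantile normalization between arrays gives all arrays 1 spread of ratios. Before it, the SD of the log2 ratio was 0.59 to 0.63 on ligation arrays and 0.18 to 0.23 on control arrays. The setting thus narrows the ligation ratios and widens the control ratios. Under it, 2 of the 9 genes passed as higher (22.2%), against 17.5% of all genes. In either direction, 35.1% of all genes passed.

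**Figure D1:**
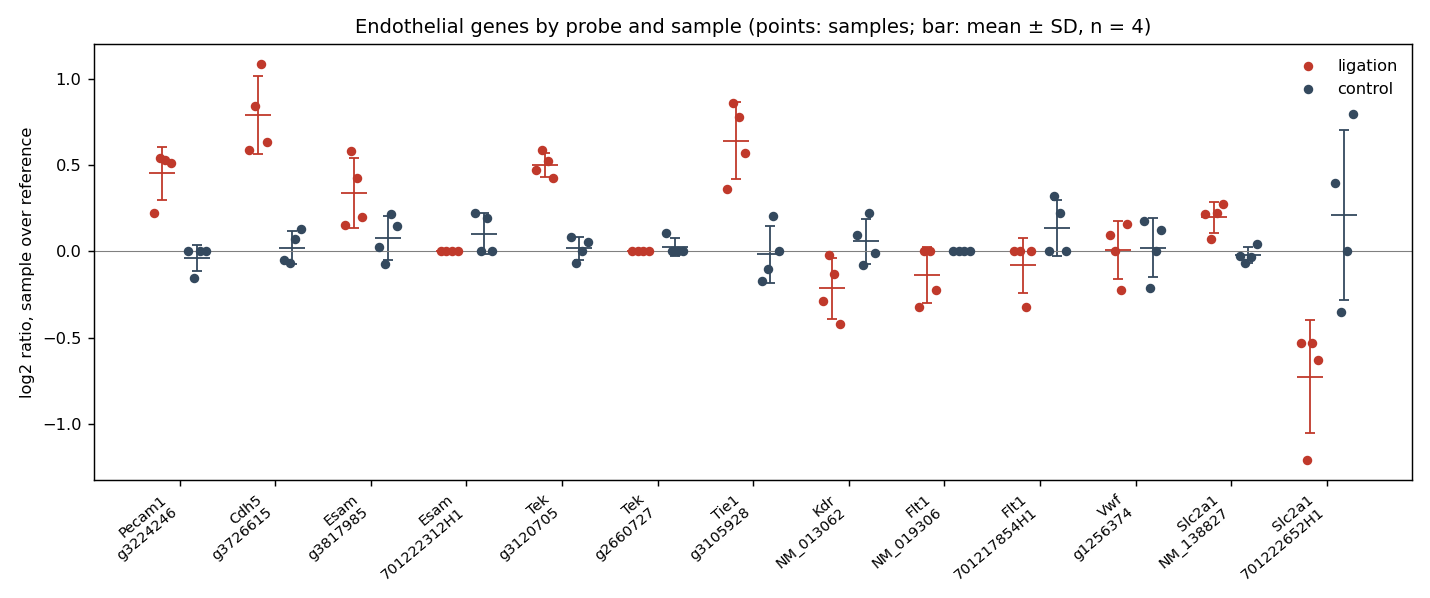
Log2 ratio of sample over reference (vertical axis) for each of the 13 endothelial probes (horizontal axis), with 4 ligation samples in red left of 4 control samples in dark blue, and bars for the mean ± SD. Cdh5, Tie1, Tek and Pecam1 stand above their controls, whereas the probes of Flt1 and Vwf overlap, and the 2 Slc2a1 probes lie on opposite sides of their controls.

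Among the junction genes, Cdh5 had the largest change. It encodes VE-cadherin, the adhesion protein of endothelial junctions (probe g3726615). Its log2 ratio was 0.59, 0.84, 1.09 and 0.64 in ligation samples 1 to 4, against -0.05, -0.07, 0.07 and 0.13 in control samples 1 to 4. The lowest ligation sample stood well above the highest control sample. The change was 0.77 ± 0.11 (SE, n = 4 per group), or 1.70-fold, with an adjusted p of 7.8e-04 in limma. Under quantile normalization it was 0.47 (adjusted p = 0.0433). In the authors' deposited table, the p-value for the ratio within an array was under 0.01 on 4 of 4 ligation arrays and on 0 of 4 control arrays.

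Pecam1, which encodes the adhesion protein CD31 (g3224246), was dimmer. Its log2 ratio was 0.22, 0.54, 0.53 and 0.51 in ligation, against 0, -0.15, 0 and 0 in control. The groups did not overlap, and the change was 0.49 ± 0.08 (adjusted p = 0.0013 in limma). Its sample intensities did overlap, at 0.14, 0.16, 0.13 and 0.1 in ligation and 0.09, 0.09, 0.14 and 0.1 in control. The reference intensity of this probe averaged 0.0975 on ligation arrays and 0.108 on control arrays, so the ratio rose more than the sample channel did. With the sample channel alone, quantile normalized, the change was 0.10 and did not pass (adjusted p = 0.64 in limma). The printed digits allowed a change between 0.22 and 0.76.

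Esam, an immunoglobulin-type adhesion protein of endothelial cells and platelets, had a log2 ratio of 0.15, 0.58, 0.43 and 0.20 in ligation on its brighter probe (g3817985), against 0.03, -0.07, 0.22 and 0.15 in control. The groups overlapped, and the change of 0.26 ± 0.11 did not pass (adjusted p = 0.082 in limma). Without ligation replicate 1 it was 0.32 and passed (adjusted p = 0.0492), and it also passed when only the brighter probes were tested (adjusted p = 0.0423). Under quantile normalization the change was 7.5e-04 (adjusted p = 0.998). The dimmer Esam probe (701222312H1), at an intensity of 0.07 to 0.09 in ligation and 0.07 to 0.08 in control, had a log2 ratio of 0 in all 4 ligation samples. Its change was -0.10, within printed-digit limits of -0.49 to 0.29.

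Both TIE receptors rose. Tek encodes TIE2, the receptor of the angiopoietins, and Tie1 encodes its partner receptor. The brighter Tek probe (g3120705) had a log2 ratio of 0.47, 0.58, 0.52 and 0.43 in ligation, against 0.08, -0.07, 0 and 0.05 in control. All ligation samples lay above all control samples, and the change was 0.48 ± 0.05 (1.40-fold, adjusted p = 7.8e-05 in limma). Under quantile normalization it was 0.28 and did not pass (adjusted p = 0.065). The reference channel, which holds 1 control pool, also differed for this probe, at 0.32 on average on ligation arrays and 0.223 on control arrays. On the log2 scale that difference was 0.54, against a median of 0.21 over all probes, and 3.58% of probes had a larger one. The part of this in the result was not tested, and with the sample channel alone the Tek change was 0.79 (adjusted p = 4.4e-04). The second Tek probe (g2660727) read 0.01 or 0.02 in each of the 8 samples, and its digits allowed changes of -2.10 to 2.15.

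Tie1 (g3105928) had a log2 ratio of 0.36, 0.86, 0.78 and 0.57 in ligation, against -0.17, -0.10, 0.20 and 0 in control. Every ligation sample was again above the controls. The change was 0.66 ± 0.13, or 1.58-fold (adjusted p = 0.0032 in limma), and under quantile normalization it was 0.43 and did not pass (adjusted p = 0.202). The Tie1 sample intensity was 0.68 to 1.07 in ligation and 0.48 to 0.68 in control, with 1 sample of each group at 0.68.

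Neither VEGF receptor passed. Kdr, which encodes VEGFR2, the main signalling receptor for VEGF-A (NM_013062), had a log2 ratio of -0.28, -0.02, -0.13 and -0.42 in ligation, against 0.10, -0.08, 0.22 and -0.01 in control. Ligation sample 2 lay within the control range and the other ligation samples lay below it. The change was -0.27 ± 0.10, with an adjusted p of 0.0517 in limma, which narrowly missed the threshold. It passed as lower without ligation replicate 2 (-0.34, adjusted p = 0.0264), without control replicate 2 (-0.32, adjusted p = 0.0479), with trend and robust (adjusted p = 0.043) and when only brighter probes or gene averages were tested. Under quantile normalization it was -0.26 and did not pass (adjusted p = 0.369 in limma). Nor did it pass under loess within arrays (-0.20, adjusted p = 0.133), with the replicate block (adjusted p = 0.0739) or with the sample channel alone (adjusted p = 0.0531). Leaving out any other single array also gave no pass. The exact two-sided permutation test over the 8 samples gave p = 0.0571.

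Flt1 encodes VEGFR1, which binds VEGF-A tightly and also exists as a soluble form. Both of its probes were dim. The probe NM_019306 read 0.04 to 0.08 in ligation and 0.04 to 0.09 in control, and the probe 701217854H1 read 0.04 to 0.07 in both. Their changes were -0.14 (adjusted p = 0.168 in limma) and -0.22 (adjusted p = 0.122), within digit limits of -0.64 to 0.37 and -0.80 to 0.36. With both probes averaged, the change was -0.18 and passed as lower (adjusted p = 0.0203).

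The changes of some endothelial genes differed from one another in tests of pairs. The per-sample difference between 2 genes was compared between ligation and control for all 36 pairs by exact two-sided permutation tests, of which 21 passed after adjustment over the 36. All 21 had the smallest p that 4 against 4 samples can give, 0.0286, and an adjusted p of 0.049. They passed together at this value, so each pass depends on how many of the 36 pairs reached that smallest p. Pairs with the dim Flt1 probe, whose control ratios were all 0 at the printed digits, were among them. The change of Cdh5 exceeded that of Kdr by 1.04, and the change of Tie1 exceeded that of Kdr by 0.93. Pecam1 and Tek differed from Kdr by 0.76 each, also among the 21. Tie1 and Cdh5 were not told apart (difference 0.11, adjusted p = 0.343), nor were Tek and Tie1 (difference -0.17, adjusted p = 0.321), nor Kdr and Flt1 (difference -0.14, adjusted p = 0.177).

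The RefSeq promoter table (GRCr8) held 5 of the 10 genes: Kdr, Flt1, Tie1, Cldn5 and Slc2a1. The stretch of 250 bases before the start is shown for the 3 receptor genes among them, Tie1, Kdr and Flt1, since the change of Tie1 differed from those of both VEGF receptors in the tests of pairs. Capitals mark GGAAG or its complement CTTCC, a form of the core recognised by ETS factors, a family known for its part in endothelial genes. Other forms of that core were not searched and stand unmarked, so the counts are not of all ETS cores.
Tie1, chr5:137304982-137305231, minus strand: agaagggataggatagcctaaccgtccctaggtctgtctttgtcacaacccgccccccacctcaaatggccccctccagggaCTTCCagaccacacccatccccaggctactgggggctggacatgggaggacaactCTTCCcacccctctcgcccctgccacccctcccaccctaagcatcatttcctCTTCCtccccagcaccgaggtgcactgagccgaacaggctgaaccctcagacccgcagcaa
Kdr, chr14:32571813-32572062, plus strand: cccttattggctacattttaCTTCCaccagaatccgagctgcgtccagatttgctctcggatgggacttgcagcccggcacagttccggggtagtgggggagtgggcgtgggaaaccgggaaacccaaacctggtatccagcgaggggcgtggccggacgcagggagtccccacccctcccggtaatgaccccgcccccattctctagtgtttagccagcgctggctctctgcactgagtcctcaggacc
Flt1, chr12:12333180-12333429, plus strand: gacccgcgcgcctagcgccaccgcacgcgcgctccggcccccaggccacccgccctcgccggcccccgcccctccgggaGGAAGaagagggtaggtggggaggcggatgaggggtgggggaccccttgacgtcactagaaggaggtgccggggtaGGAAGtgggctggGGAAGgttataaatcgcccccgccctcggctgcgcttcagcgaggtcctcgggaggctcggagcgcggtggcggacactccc

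The GGAAG form was found 3 times in the Tie1 window, at 168, 113 and 61 bases before the start. It was found 1 time in the Kdr window, at 230 bases, and 3 times in the Flt1 window, at 171, 95 and 82 bases. Cldn5 and Slc2a1 held 0. Of 33469 promoters in the table, 63.3% held at least 1 match in a window of this length. The hypoxia response core, searched as ACGTG and GCGTG on both strands, was matched 2 times in Kdr, 1 time in Flt1, 4 times in Slc2a1 and 0 times in Tie1 and Cldn5, and 36.7% of all promoters held it. The GATA motif, searched as GATAAG on both strands, was matched 0 times in the 5 windows, and 6.18% of all promoters held it. GC content was 61.6% in the Tie1 and Kdr windows and 73.2% in the Flt1 window.

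Vwf encodes von Willebrand factor, the clotting protein stored in endothelial cells and platelets (g1256374). Its log2 ratio was 0.10, 0, -0.22 and 0.16 in ligation, against 0.18, -0.21, 0 and 0.13 in control. The groups covered the same range. The change was -0.01 ± 0.11 (adjusted p = 0.939 in limma), and its sign turned under 5 of the alternative settings.

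Slc2a1 encodes GLUT1, the glucose transporter of barrier endothelium, and its probes went in opposite directions. The probe named by the RefSeq transcript NM_138827 had 3 spots under 1 Sequence ID, each with its own reporter number and with very unequal intensities, so they may hold different oligos. Averaged over the 3, its log2 ratio was 0.22, 0.07, 0.22 and 0.28 in ligation, against -0.03, -0.07, -0.03 and 0.05 in control. The change was 0.22 ± 0.05, or 1.16-fold (adjusted p = 0.0061 in limma). Under quantile normalization it was 0.23 and did not pass (adjusted p = 0.072), and with the sample channel alone it was 0.44 (adjusted p = 0.0089). The reference intensity of this probe averaged 3.77 on ligation arrays and 3.05 on control arrays, a log2 difference of 0.31, whose part in the result was not tested. The 3 spots had changes of 0.29, 0.24 and 0.12, and for the dimmest spot (sample intensity 0.45 to 0.54 in ligation and 0.35 to 0.41 in control) the log2 ratios of the groups overlapped.

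The other Slc2a1 probe (701222652H1) had a log2 ratio of -0.53, -1.21, -0.53 and -0.63 in ligation, against 0.40, -0.35, 0 and 0.80 in control. The change was -0.93 ± 0.27 (adjusted p = 0.0205 in limma), so this probe passed as lower. Its sample intensity was 0.09 to 0.13 in ligation and 0.16 to 0.59 in control, with control sample 4 the highest. It did not pass without ligation replicate 2 (-0.77, adjusted p = 0.052) or without control replicate 1 (-0.87, adjusted p = 0.0561). The 2 probes differed in their change by 1.15 (exact permutation p = 0.0286, the smallest possible, adjusted p = 0.0381 over the 4 genes with 2 probes). Averaging both probes turned the Slc2a1 change to -0.36 (adjusted p = 0.0739), so a direction for the gene rests on the choice of probe. The 2 Esam probes and the 2 Tek probes also differed in their change (adjusted p = 0.0381 each), in each case with the second probe dim.

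**Figure D2:**
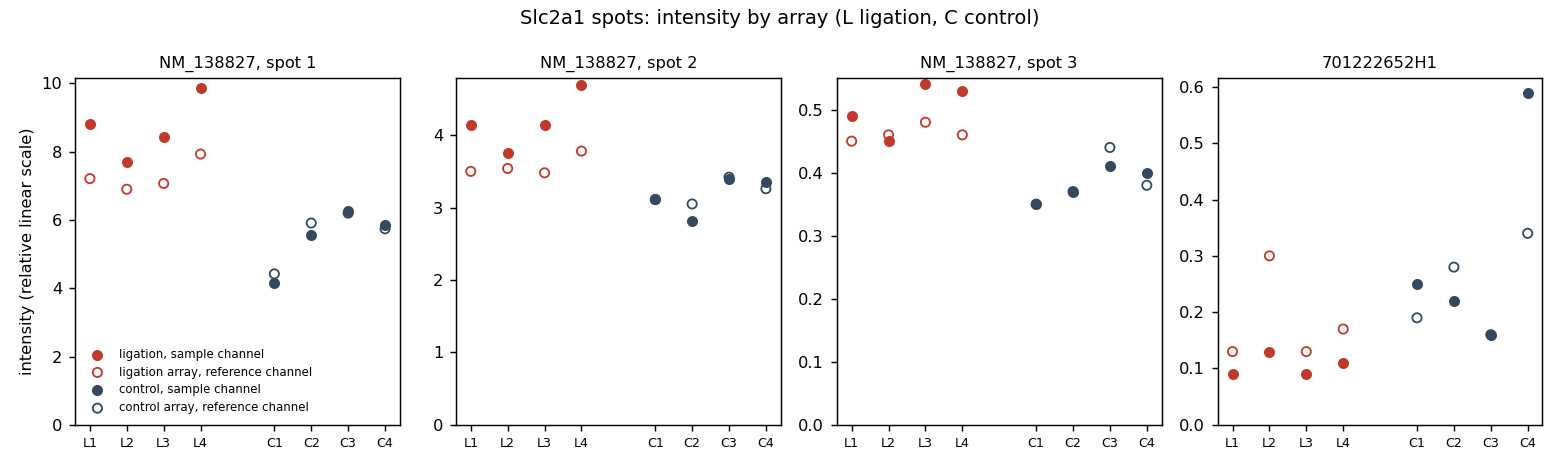
Intensity on the authors' relative linear scale (vertical axes, from 0) of the 4 Slc2a1 spots on ligation arrays (L1 to L4, red) and control arrays (C1 to C4, dark blue), with filled points for the sample channel and open points for the reference channel. For the 3 spots of NM_138827 the ligation samples are brighter, 7.7 to 9.86 against 4.16 to 6.25 in control on the brightest spot, while 701222652H1 is dimmer in ligation.

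**Figure D3:**
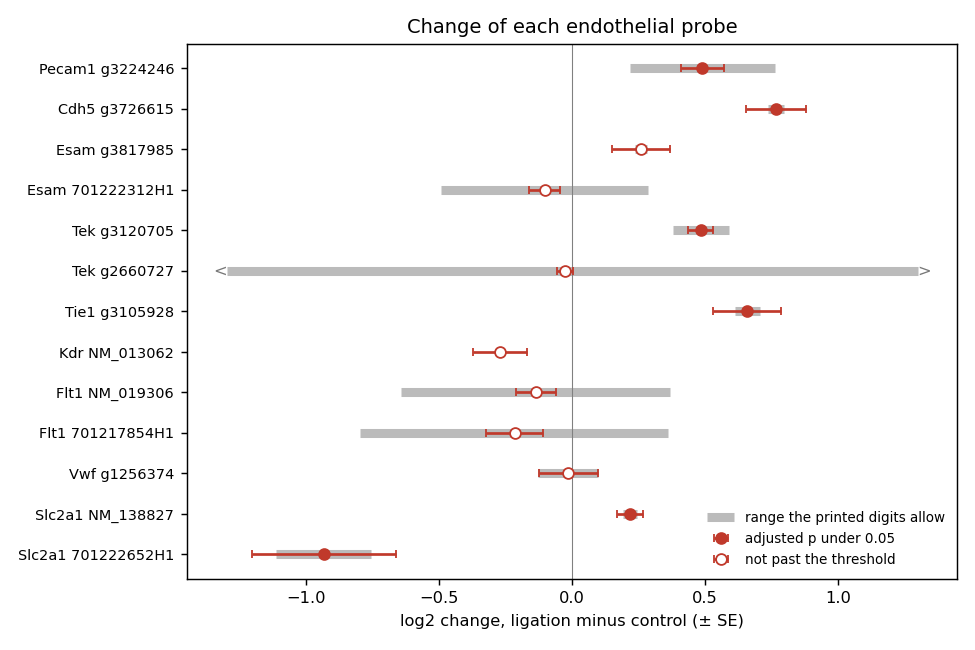
Log2 change, ligation minus control, of each endothelial probe (points, with SE) over the range that the printed digits allow (grey bars, with arrowheads where they leave the axis). Filled points passed the test: Pecam1, Cdh5, the brighter Tek probe, Tie1 and NM_138827 of Slc2a1 as higher, and 701222652H1 of Slc2a1 as lower.

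The order of the ligation samples was alike in most endothelial genes. For 7 of the 9 genes, all but Vwf and Slc2a1, ligation samples 2 and 3 both lay above samples 1 and 4, an order that 23.5% of all 10659 genes with a value on every ligation array showed. The order was picked from these same genes after their values had been seen, so the count beside that share is a description only. At the printed digits the order was certain for 4 of the 7 genes (Cdh5, Tie1, Esam and Kdr), and the other Flt1 probe had ligation sample 3 lowest. The median log2 ratio of the 9 genes was 0.22, 0.54, 0.43 and 0.28 in ligation samples 1 to 4, against 0, -0.07, 0 and 0.05 in control samples 1 to 4. A further list of 24 measured endothelial genes had medians of 0.09, 0.42, 0.30 and 0.16 in ligation, and 13 pericyte and smooth muscle genes had 0.14, 0.42, 0.30 and 0.22. The same order held for the medians of vessel activation genes (0.65, 0.88, 0.95 and 0.48), lymphatic genes (0.55, 0.65, 0.78 and 0.08), perineurial genes (0.33, 0.54, 0.56 and 0.47), dividing cell genes (1.22, 1.40, 1.48 and 1.25) and glial genes (-0.12, 0.10, 0 and -0.28). It also held for VEGF and angiopoietin signalling genes (0, 0.09, 0.08 and 0.01). It did not hold for neuron genes (-1.56, -1.59, -1.64 and -1.58), macrophage genes (1.97, 1.95, 2.14 and 1.90) or barrier genes (0.29, 0.18, 0.21 and 0.33). Nor did it hold for platelet genes (-0.44, -0.17, -0.54 and -0.40) or red cell genes (-0.20, -0.34, -0.28 and -0.27). The other glucose transporters and hexokinases (-0.10, -0.02, -0.17 and -0.01) did not show it either. The source of the spread between ligation samples was not tested.

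**Figure D4:**
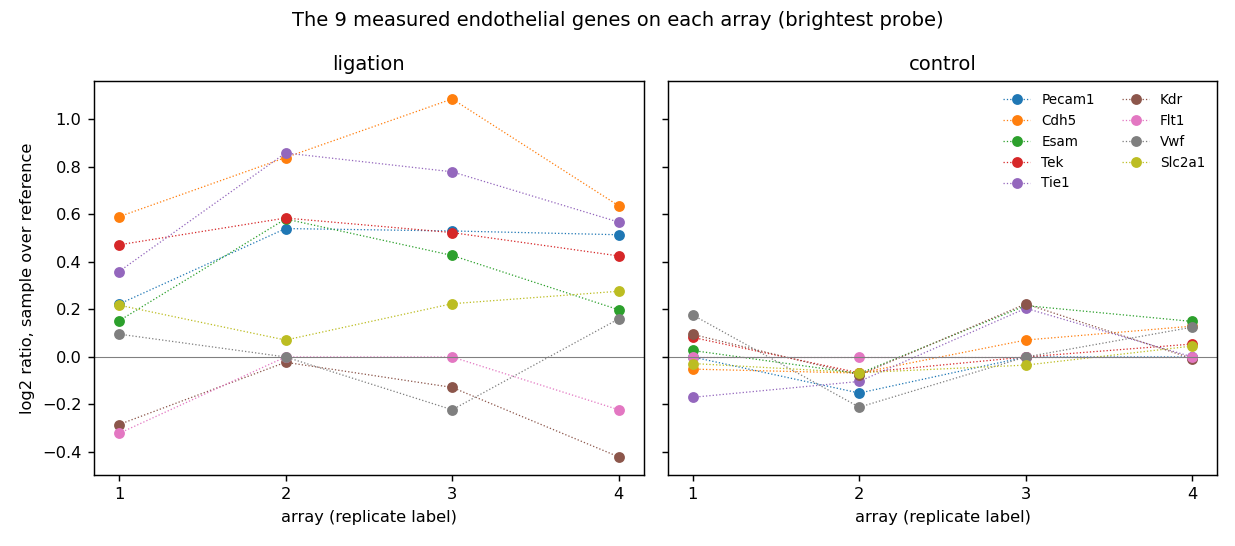
Log2 ratio of the brightest probe of the 9 measured endothelial genes (vertical axis) on the 4 ligation arrays (left) and the 4 control arrays (right), joined by dotted lines to follow a gene, since replicates have no order. Ligation arrays 2 and 3 sit above arrays 1 and 4 for 7 of the 9 genes, and Cdh5 and Tie1 stand highest.

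By root mean squared difference of the log2 ratio over the 8 arrays, the gene nearest to Tie1 among 10483 named genes was Sox18 (0.11), an endothelial transcription factor. Furin was nearest to Cdh5 (0.07), Echdc3 to Pecam1 (0.07), Tmem216 to Tek (0.03), Mecom to Esam (0.08) and Ccdc102a to Kdr (0.07). For Slc2a1, Cenpm was nearest (0.04), but 506 genes lay within 0.1, and 311 did so for Tek, so these 2 profiles were common ones. Igf2bp1 was nearest to Flt1 (0.02) and Add1 to Vwf (0.06).

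Other genes of the endothelium rose in part. Of the 24 measured genes of that list, 10 were higher (41.7%), 1 was lower and 13 did not pass, with a median change of 0.20. Of all genes, 30.2% were higher. Under quantile normalization 6 of the 24 were higher (25%), against 17.5% of all genes. Lmo2, a transcription cofactor of blood and vessel cells, rose 2.26-fold (1.18 ± 0.09, adjusted p = 2.7e-05 in limma). Calcrl, the receptor of adrenomedullin and CGRP, rose 1.81-fold, and Fli1, an ETS factor that leukocytes also express, rose 1.73-fold but did not pass with the sample channel alone (0.48, adjusted p = 0.0997 in limma). Sox18 rose 1.60-fold but did not pass under quantile normalization (0.45, adjusted p = 0.0791). S1pr1, the sphingosine 1-phosphate receptor, had a change of -0.05 (adjusted p = 0.443). Rasip1, a regulator of vessel tube formation named here because it was the 1 lower gene, fell by 0.45. Fli1 had 3 probes, of which 2 passed, and Calcrl had 2, of which 1 passed.

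Genes of vessel activation and adhesion were higher in 12 of 14 measured members (85.7%, against 30.2% of all genes) and lower in 0, with a median change of 0.83. Under quantile normalization 7 of the 14 were higher (50%, against 17.5% of all genes), with a median change of 0.55. Plat, the tissue plasminogen activator, rose 1.92-fold (0.94 ± 0.04, adjusted p = 1.2e-06 in limma), Adamts1, a secreted metalloproteinase, rose 3.56-fold, and Edn1, the vasoconstrictor endothelin, rose 2.18-fold. Edn1 was dim, and its digits allowed changes of 0.36 to 1.91. Neurons, glia and leukocytes also express several of these genes.

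In the signalling list around the members' receptors, 4 of 14 genes were higher (28.6%) and 3 were lower (21.4%), with a median of 0.04. Over all genes the shares were 30.2% and 35.9%. Hif1a, a hypoxia-inducible factor subunit, rose 1.71-fold, and Vegfd, a ligand of the lymphatic VEGF receptor and in humans also of VEGFR2, rose 1.98-fold but did not pass under quantile normalization (0.44, adjusted p = 0.0613 in limma). Notch1 rose 1.27-fold but was at -0.08 under quantile normalization, and Angpt4, an angiopoietin, rose by 0.33 on a dim probe whose digits allowed -0.34 to 1.01 and which did not pass with the sample channel alone (0.04). Vegfa, the main ligand of Kdr and Flt1, fell by 0.51 ± 0.04 (adjusted p = 3.3e-05 in limma) on the brightest of its 3 probes, the 1 that passed. Jag1, a Notch ligand, fell by 0.45, and Pgf, a ligand of Flt1, fell by 0.15 but was at 0.06 with the sample channel alone. Hif1a and Vegfd had 2 probes each, of which 1 passed. Angpt2, an angiopoietin that binds Tek, had a change of 0.03 (adjusted p = 0.765). The coreceptors Nrp1 (-0.05, adjusted p = 0.483) and Nrp2 (0.29, adjusted p = 0.151) did not pass, nor did the ligands Vegfb (-0.01, adjusted p = 0.947) and Vegfc (0.15, adjusted p = 0.389). The ligands and coreceptors were named for their role beside the members, after their values had been seen.

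Genes of barrier junctions and transport went both ways, 7 of 15 higher (46.7%) and 5 lower (33.3%), with a median of 0.30. Of all genes, 30.2% were higher and 35.9% were lower. The efflux pump gene Abcb1a rose 2.11-fold (1.08 ± 0.05, adjusted p = 3.6e-06 in limma), the tight junction scaffold gene Tjp1 rose 1.60-fold on 1 of its 2 probes, and the occludin gene Ocln rose 2.08-fold on a dim probe with digit limits of -0.02 to 2.17. Under quantile normalization 2 of the 15 were higher (13.3%) and 1 was lower (6.7%), below the 17.5% and 17.6% of all genes. There Tjp1 (0.23), Tfrc (-0.24), Jam2 (-0.15) and Jam3 (-0.12) did not pass. The 5 lower genes were Tfrc, the transferrin receptor (fell by 0.70), the junctional adhesion genes Jam2 (fell by 0.51) and Jam3 (fell by 0.13, a call lost under 5 settings), the thyroxine transporter gene Slco1c1 (fell by 1.24) and the monocarboxylate transporter gene Slc16a1 (fell by 0.24, but at 0.06 under quantile normalization). Glucose transporters other than Slc2a1 and hexokinases were higher in 2 of 7 and lower in 2 (28.6% each), with Slc2a8 at -0.76, Hk1 at -0.42 and Slc2a5 at 0.36.

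Pericyte and smooth muscle genes were higher in 6 of 13 (46.2%, against 30.2% of all genes) and lower in 2 (15.4%, against 35.9%), with a median of 0.18. The 61.5% that passed lay near the 66.1% of all genes. Under quantile normalization 1 passed as higher (7.7%) and 0 as lower, against 17.5% and 17.6% of all genes. Anpep, an aminopeptidase of pericytes and myeloid cells, rose 3.80-fold, while Des (desmin) fell by 0.29 and Vtn (vitronectin) fell by 0.65. Lymphatic genes were higher in 3 of 5 (60%) and lower in 0. Pdpn (podoplanin) rose 1.51-fold, Lyve1, also known from macrophages, rose 2.17-fold, and the chemokine gene Ccl21 rose 4.07-fold. Under quantile normalization 1 of these 5 passed as higher (20%), and Pdpn (0.46) and Ccl21 (1.44) did not pass. Ccl21 also did not pass without ligation replicate 2 (adjusted p = 0.0558 in limma) or ligation replicate 3 (adjusted p = 0.0536). Its log2 ratio was -0.08, -0.07, 0.43 and -2.29 in control samples 1 to 4, so the size of its rise leans on control sample 4. All 4 measured perineurial genes were higher, against 30.2% of all genes. Cldn1 (claudin-1) rose 1.90-fold, Itgb4 1.41-fold, Tenm2 1.37-fold and Ntn4 1.22-fold. However, 0 of the 4 passed under quantile normalization in limma, where Itgb4 was at 0.09.

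**Figure D5:**
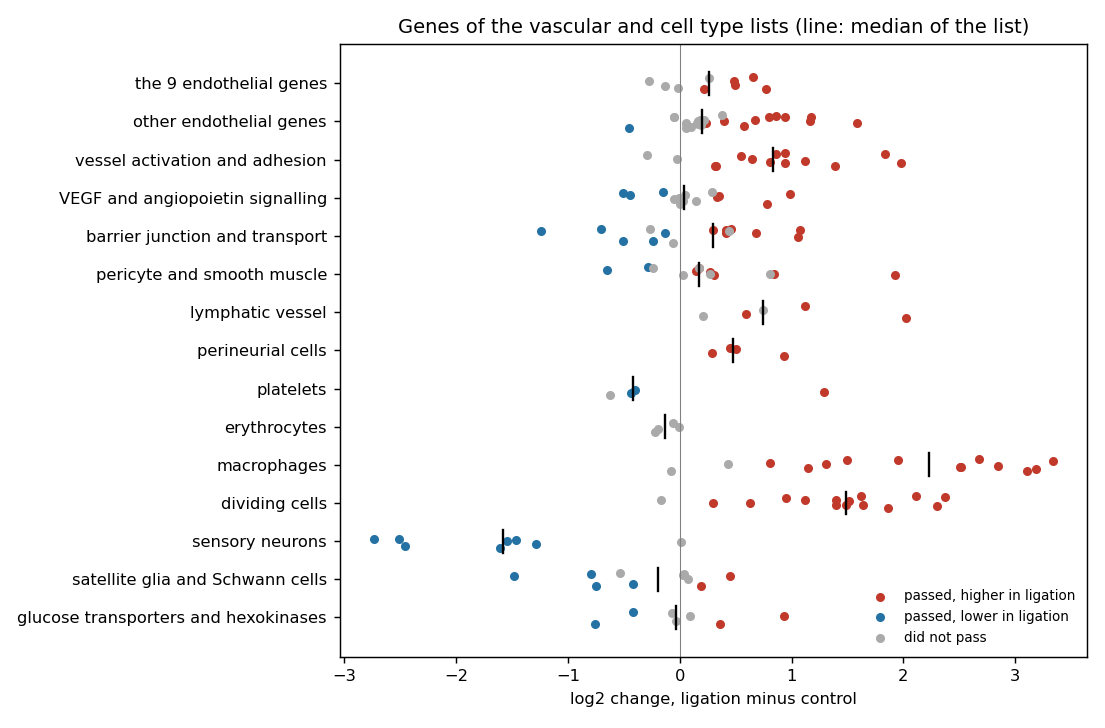
Log2 change, ligation minus control (horizontal axis), of each measured gene in the vascular and cell type lists, in red where it passed as higher, blue where it passed as lower and grey where it did not pass, with a line at each list's median. The 9 endothelial genes span -0.27 to 0.77, a narrower range than the macrophage genes, which reach 3.34.

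Markers of other cell types, some of which carry endothelial genes, were also measured, and these lists did not move alike. Of all genes, 30.2% were higher and 35.9% were lower. Macrophage markers were higher in 12 of 14 measured genes and lower in 0, with a summed intensity of 58.5 to 62.6 in ligation and 7.25 to 8.74 in control. C1qb rose 6.38-fold, Trem2 10.1-fold and Ctss 8.63-fold. Genes of dividing cells were higher in 14 of 15 and lower in 0 (summed intensity 30.7 to 35.8 in ligation, 15.1 to 17.6 in control), with Prc1 at 3.64-fold, Cdk1 at 4.33-fold and Cdc20 at 2.63-fold. Of 4 platelet markers, Pf4 rose 2.44-fold, Gp9 fell by 0.40, Gp5 fell by 0.44 on a dim probe with digit limits of -1.62 to 0.70, both calls being lost under quantile normalization, and their summed intensity was 0.42 to 0.67 in ligation and 0.33 to 0.57 in control. Of 4 red cell markers 0 passed, with sums of 22.7 to 24.7 in ligation and 18.3 to 27.6 in control. Satellite glia and Schwann cell markers were higher in 2 of 10 and lower in 4, with a median change of -0.19. No measured gene of these lists had a mean sample intensity of 0, but a low intensity does not show that a gene is expressed. The part of these cells in the endothelial changes was not tested.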

How the data were processed

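Gene expression was measured on two-colour Agilent arrays in 4 ligation and 4 control samples of dorsal root ganglion. The labels state 2 rounds of amplification from 100 ng of RNA. Agilent Feature Extraction 8.5.1.1 is named in the submitters' processing notes; any background correction or scaling by the authors is not stated. The deposited values are linear intensities, 1 per channel, and a p-value per array for the ratio between them. Intensity 2, of the channel that the labels give to the sample, was divided by intensity 1. A second deposited table holds log10 ratios, which equalled these to within 0.005. Of the columns of values, 0 were left unmapped.

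Spots of 1 probe (Sequence ID) were averaged as log2 ratios, with no further scaling. Probes with values on 2 or more arrays per group, 22379 of 22491, entered the test; the other 112 did not. Names came from a RefSeq gene table (GRCr8), 2930 by accession, 10285 by symbol and 1900 by synonym. The fit used limma 3.58.1 in R 4.3.3, after a test on simulated data, and other steps ran in Python 3.11.15. The alternatives were other scalings, a replicate block, a filter on dim probes, averaged probes, the sample channel alone and leaving out each array. The number of arrays limits the precision. The labels call the samples biological replicates, each from 2 animals.

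The members and lists were chosen with earlier results of these data known. The naming rule covered all member probes, the gene nearest to each member and, per list, 3 genes by smallest adjusted p and 1 by smallest absolute change. Genes outside it were named because they were called or for their role, after their values had been seen.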

Additional observations from a re-analysis of the deposited data

Results flagged for a closer look

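In 5 of 23 groups of 4 arrays with any spread among the endothelial probes, 1 array stood apart from the other 3, where chance gives about 1 in 20 for values that are not rounded. For Pecam1, ligation sample 1 had the lowest log2 ratio of its group, 0.22, and control sample 2 the lowest of its own, -0.15. The Slc2a1 probe 701222652H1 had -1.21 in ligation sample 2, below the other ligation samples. Ligation sample 3 had -0.32 on the Flt1 probe 701217854H1, and control sample 1 had 0.11 on the dimmer Tek probe g2660727. In these last 2 groups and in the Pecam1 control group the other samples all had a log2 ratio of exactly 0 at the printed digits. The flag was fixed there by the rounding, so the count of 5 cannot be set against the chance share.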

How the results depend on the processing

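The count of all probes passing, 13105, was 6368 (3044 higher, 3324 lower) under quantile normalization between arrays and 8559 (3766 higher, 4793 lower) among the brighter probes, where fewer probes are tested; without each array in turn it was 12019 to 12735 (5455 to 5791 higher, 6564 to 6944 lower). The count of endothelial genes passing as higher, 5, was 2 under quantile normalization, where Cdh5 (0.47) and Pecam1 (0.37) passed and Tek (0.28), Tie1 (0.43) and NM_138827 of Slc2a1 (0.23) did not. It was 4 with the sample channel alone and with gene averages, and 5 to 6 without each array in turn. The count passing as lower, 0, was 1 with trend and robust and among the brighter probes, 2 with gene averages, and 0 to 1 without each array in turn. The count of endothelial genes passing in either direction was 5 to 6 without each array. With the replicate block 5 endothelial genes passed as higher and 12577 probes passed in all. Same-numbered arrays deviated together with correlations of 0.068 to 0.164, 1 of the 4 pairs under 0.1. Every array correlated best with its own number. The main fit did not take the numbers as pairs, but these correlations do not exclude a pairing. The control arrays differed from the reference on 148 probes, 3407 under quantile normalization and 72 to 176 without each array.

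Vwf turned to 0.015 under loess within arrays and 0.17 with the sample channel alone, and it was -0.092 to 0.063 without each array in turn. The dimmer Tek probe turned to 0.025 under loess, and Slc2a1 to -0.36 with averaged probes. Under quantile normalization S1pr1 turned to 0.058, Angpt2 to -0.15, Nrp1 to 0.10, Notch1 to -0.076 and Slc16a1 to 0.055. Vegfb turned to 0.017 under loess and was -0.081 to 0.031 without each array in turn, Angpt2 was -0.029 to 0.095 without each array, and Pgf turned to 0.062 with the sample channel alone. The cause of these turns was not tested. Dim probes limit Flt1, Pecam1 and the second probes of Esam and Tek, through the printed digits.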
